A study of Saccharomyces cerevisiae with 8 samples.

Results

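The comparison described here sets the RNA recovered with tagged Pho92 from an ime4 mutant against the RNA recovered from cells without a tag, and so asks what Pho92 purification still yields over background when the methyltransferase is missing. Its members are RNA regions: peaks from the 2 ime4 mutant and 2 untagged libraries were joined wherever they touched on a strand, which gave 81230 regions, while the 8 libraries of the series together gave 105293. Each library's peak scores were added up per region, with 0 for a region that had no listed peak.

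The assay was CRAC, in which cells are irradiated with UV light, a tagged protein is purified under denaturing conditions, and the RNA that stays attached is sequenced. All cells were diploid meiotic yeast of the SK1 pCUP-IME1 background, in which IME1, the regulator of entry into meiosis, is placed under a copper-responsive promoter. The ime4 mutant group carried Pho92-HTP, the untagged group was labelled WT, and both were irradiated at 254 nm for 80 s. Both received 50 μM copper sulfate after 2 h in sporulation medium and were taken at 5 h, which is 3 h after induction. The groups therefore differ in the tag and in IME4 together, and the effects of the 2 on these values cannot be told apart. The remaining libraries, Pho92-HTP with IME4 present and Pho92-HTP without irradiation, serve here as further readouts of the same regions. Each group has 2 libraries, called biological replicates in the series text, all from 1 strain background at 1 time point. An equal amount of crosslinked fission yeast carrying Luc7-HTP was added to every sample as a spike-in.

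Pho92 is a YTH-domain protein, a family that binds RNA carrying N6-methyladenosine (m6A). Ime4 is the catalytic subunit that deposits m6A on messenger RNA in meiotic yeast, and untagged cells taken through the same purification are the usual measure of its background. The peak lists name positions on SK1 contigs and no genes, and no SK1 genome or annotation was used here, so regions are given by contig, position and strand, without gene names or sequence. For the same reason the ime4 genotype was not checked against the gene itself.

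The ime4 mutant lists held 47377 and 60778 peaks, and the untagged lists 2659 and 2138. A peak's score, called h2w by the authors, equals its squared height over its width, from which a summit height in read equivalents was worked out. A log2 difference in score is therefore about 2 times the one in height. Summits added up to 1.69e+06 and 2.19e+06 read equivalents in the ime4 mutant and to 53223 and 35058 in untagged cells. Many of the untagged peaks were at the lower limit: 29.7% and 33.9% of them were 1 read high, against 14.8% and 13.4% in the ime4 mutant. The authors' threshold, a spike-in normalized score of 0.9, was reached by a 32-nt peak of 153 and 201 read equivalents in the ime4 mutant libraries and of 190 and 230 in the untagged libraries.

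Scaled to the spike-in, purification from the ime4 mutant recovered far more than purification without the tag, and the gap was wide among strong peaks. Peaks above 0.9 numbered 336 and 333 in the ime4 mutant, 334.5 ± 2.12 on average, against 33 and 20 in untagged cells, 26.5 ± 9.19 on average (SD, n = 2 each), a ratio of 12.6. This gap is one of amount after spike-in scaling, and with scores scaled by library total the ratio was 1.33. Above a score of 9 the numbers were 173 and 166 in the ime4 mutant against 11 and 4 in untagged cells, and above 90 they were 112 and 97 against 4 and 4. Above 900 there were 56 and 52 peaks in the ime4 mutant and 1 in each untagged library. At each of these thresholds both ime4 mutant libraries exceeded both untagged libraries, but 2 against 2 libraries cannot give a two-sided exact p below 0.33.

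**Figure D1:**
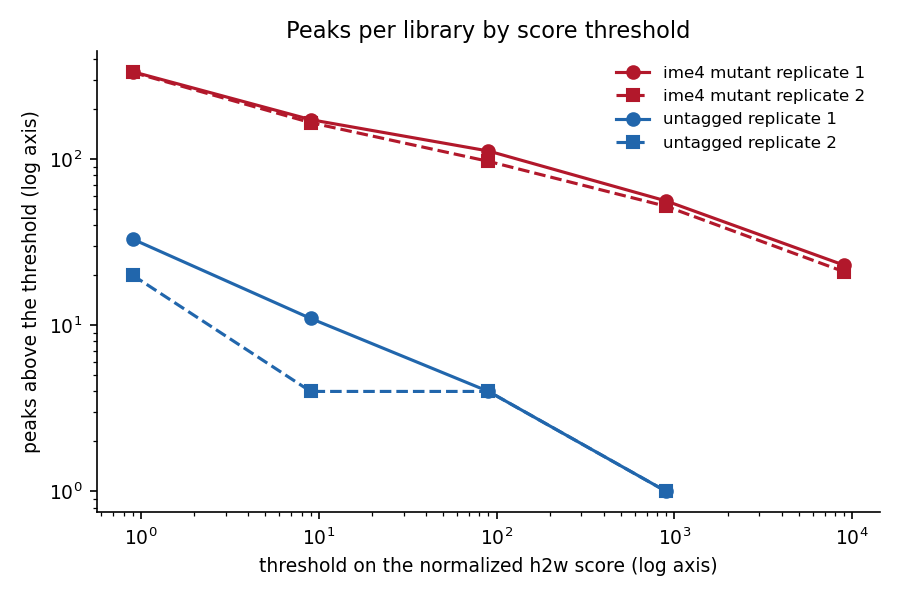
Number of peaks (log axis) above each of 5 thresholds on the normalized h2w score (log axis) in each ime4 mutant and untagged library. The ime4 mutant libraries run from 336 and 333 peaks at 0.9 down to 23 and 21 at 9000, and the untagged libraries from 33 and 20 to 1 each at 900 and none at 9000, which a log axis cannot show.

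Summed over all peaks, spike-in scaled summit heights came to 2.21e+06 ± 21804 read equivalents in the ime4 mutant and 43635 ± 18186 in untagged cells (SD, n = 2 each), a ratio of 50.6. Peaks covered 1508797 and 1935958 nt in the ime4 mutant and 85086 and 68245 nt in untagged cells, a ratio of 22.5. The mean score per peak was 32.5 and 27.2 in the ime4 mutant and 2.22 and 0.768 in untagged cells. Total reads per library are not known, and the counting error of these heights is not given. The untagged lists were scaled with factors that the deposited table gives to the no-UV libraries, and with the table's own factors for untagged cells the ratio of peaks above 0.9 was 15.2.

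Most of the background positions also carried a peak in the ime4 mutant. Of the 4797 untagged peaks, 79.0% overlapped an ime4 mutant peak by at least 1 nt on the same strand, whereas 5.03% of the 108155 ime4 mutant peaks overlapped an untagged one. The share depended on height: ime4 mutant peaks of up to 5 read equivalents had an untagged counterpart in 2.08% of cases, those between 100 and 1000 in 67.6%, and those above 1000 in 96.4%. Counting ime4 mutant peaks above 0.9 in each library, 87.5% and 89.5% overlapped an untagged peak of any score, but 8.93% and 9.31% overlapped an untagged peak that was itself above 0.9. Strong sites in the ime4 mutant thus mostly had a listed untagged peak, and that peak was mostly far lower.

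The lists cover unequal lengths, so these shares are not comparable between directions. Untagged replicates shared few positions with each other, with 17.0% of replicate 1 peaks found in replicate 2 and 21.2% in the other direction. The 568 and 438 untagged peaks without an ime4 mutant peak had a median height of 2 read equivalents in both libraries, and 4 of these peaks, at 3 positions, were above 0.9. These positions were on contig NCSL01000092.1, starting at 1992, 2756 and 4069 on the plus strand. Strong ime4 mutant peaks lay close by, such as those scoring 148071 and 418804 at 4014 to 4045.

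Listing patterns across the 81230 regions follow the same order. Both ime4 mutant libraries and neither untagged library had a peak in 24025 regions, and 1 ime4 mutant library alone in 52979. All 4 libraries had a peak in 448 regions. The median of the higher ime4 mutant summit was 177 read equivalents in those 448, 20.3 in the 1871 regions with a peak in 1 untagged library and both ime4 mutant libraries, and 9.16 in the 24025 with none. Another 925 regions had untagged peaks only, 14 of them in both untagged libraries.

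The test was limma's, run for any region that passed 0.9 in at least 2 libraries, on log2(normalized score + 2.3e-05). This left 292 regions on 61 contigs, 156 of them on the plus strand. They accounted for 75.7% and 73.9% of the ime4 mutant's summit read equivalents and 81.8% and 78.6% of the untagged ones. The ime4 mutant was higher in 290 of the 292 (99.3%) and lower in 1 (0.342%), and 1 was not called (limma, adjusted p threshold 0.05). Log2 score differences had a median of 15.10 (quartiles 12.32 and 16.26) and a median SE of 1.26. However, 260 of the 292 passed the filter through the ime4 mutant alone and so had to differ, which leaves this count without weight of its own. Without ime4 mutant replicate 1, 242 regions were called higher, and without replicate 2, 244, the lone library being assumed to vary like the untagged pair.

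A set less bound by the filter is the 448 regions listed in every library, taken at any score. Of these, 419 were higher in the ime4 mutant (93.5%), 0 were lower, and 29 were not called (limma). At an unadjusted p under 0.05 the counts were 420 higher and 0 lower. The median log2 difference was 10.39, which corresponds to a 36.6-fold higher summit, with quartiles of 12.8-fold and 108-fold. In 432 of the 448 both ime4 mutant values lay above both untagged values. The difference extended to weak sites: of 232 regions that stayed at or below 0.9 in every library, 203 were called higher. The 29 uncalled regions were low in both groups, with a median higher summit of 15.2 read equivalents in the ime4 mutant and 8.91 in untagged cells. Being listed in both untagged libraries is itself a condition on background, so these regions do not stand for the weaker majority.

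With no filter at all, 11290 of the 81230 regions were called higher (13.9%) and 4 lower (0.00492%), at a median log2 difference of 2.63 (limma). The 11290 lay on 95 contigs, 5770 on the plus strand, each with a peak in both ime4 mutant libraries, and 9882 had no untagged peak. Their median summits were 12 and 15.2 read equivalents in the ime4 mutant. The 4 lower regions include those on NCSL01000092.1 at 2756 and at 4069, close to strong ime4 mutant peaks. This fit did not call several of the strongest sites, among them that on NCSL01000010.1 described next, although the differences are the same.

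**Figure D2:**
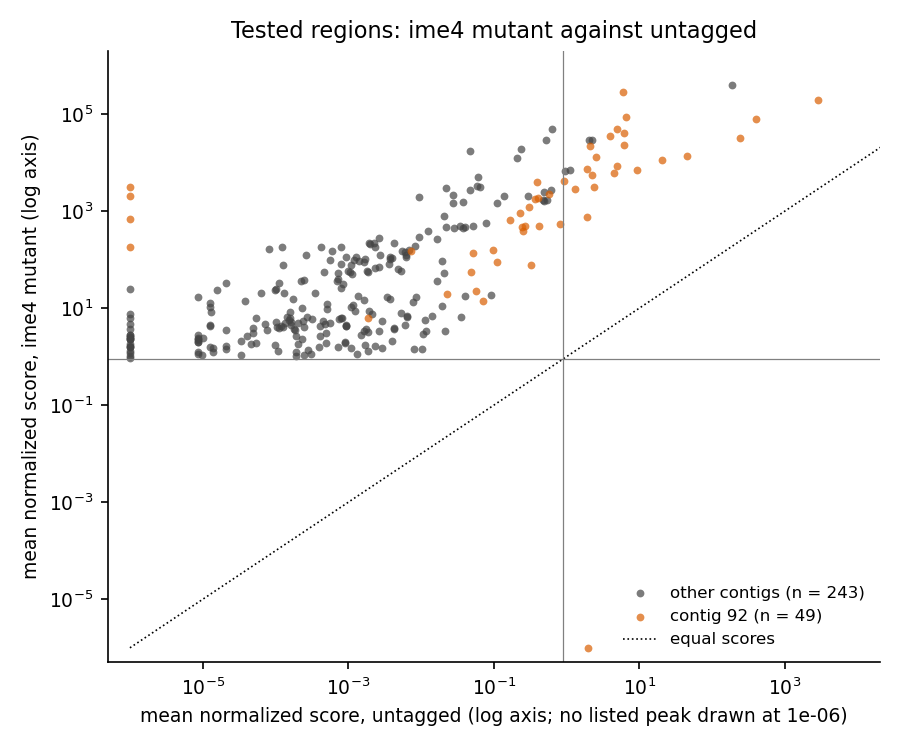
Mean normalized score of the 292 tested regions in the ime4 mutant (y, log axis) against untagged cells (x, log axis), with regions of contig NCSL01000092.1 (contig 92, n = 49) in orange and all others (n = 243) in dark grey. Grey lines mark 0.9, the dotted line equal scores, and groups without a listed peak are drawn at 1e-06. All points but 1 lie above the line of equal scores. The exception, on contig 92 at 2756 to 2784, has no ime4 mutant peak.

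The strongest site of the ime4 mutant by mean score was NCSL01000010.1 at 76774 to 76805 (plus strand). It scored 540718 and 261954 in the ime4 mutant and 265 and 109 in untagged cells (log2 difference 11.11, SE 1.20, adjusted p = 0.000495, limma), with summits of 117046 and 106817 against 3208 and 2495 read equivalents. Untagged cells thus gave a strong peak at the same place, and after spike-in scaling the mean summit was 46.7-fold higher in the ime4 mutant. The summits given are unscaled, whereas this and later summit folds use spike-in scaled heights. The same region scored 139280 and 423189 in Pho92-HTP and 294379 and 217856 without UV.

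Of the other 7 regions with the highest mean in the ime4 mutant, 6 lay on contig NCSL01000092.1. At 4014 to 4045 on that contig the scores were 148071 and 418804 in the ime4 mutant against 9.32 and 2.46 in untagged cells (log2 difference 15.67, SE 1.26, adjusted p = 0.00025, limma). Scores between 1936 and 1967 were 90230 and 80266 against 9.89 and 3.15. The region off that contig, NCSL01000008.1 at 152984 to 153016 (plus strand), scored 70323 and 26578 in the ime4 mutant and 1.05 and 0.217 in untagged cells, a 292-fold higher summit. In each of these the 2 groups did not overlap, but that held for 290 of the 292 tested regions and does not set these apart.

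Contig NCSL01000092.1 held 49 of the 292 tested regions, all on the plus strand, and carried the bulk of the background. It took 33.2% and 44.3% of summit read equivalents in the ime4 mutant and 66.4% and 62.7% in untagged cells. Of its 49 regions, 47 were higher in the ime4 mutant, 1 was lower and 1 was not called (limma), with a median log2 difference of 11.54. On all other contigs 243 of 243 were higher, with a median of 15.42, but the filter was passed mostly through the ime4 mutant alone and these values do not set the contig apart. Over the 448 regions listed in every library, the median was 11.06 on the contig (41 regions, 41 called higher) and 10.10 elsewhere (407 regions, 378 called higher), the opposite order. Median summits of the tested regions on the contig were 6212 and 8946 read equivalents in the ime4 mutant against 199 and 131 in untagged cells, and elsewhere 546 and 610 against 6.38 and 4. The difference between the contig and the rest was not tested.

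**Figure D3:**
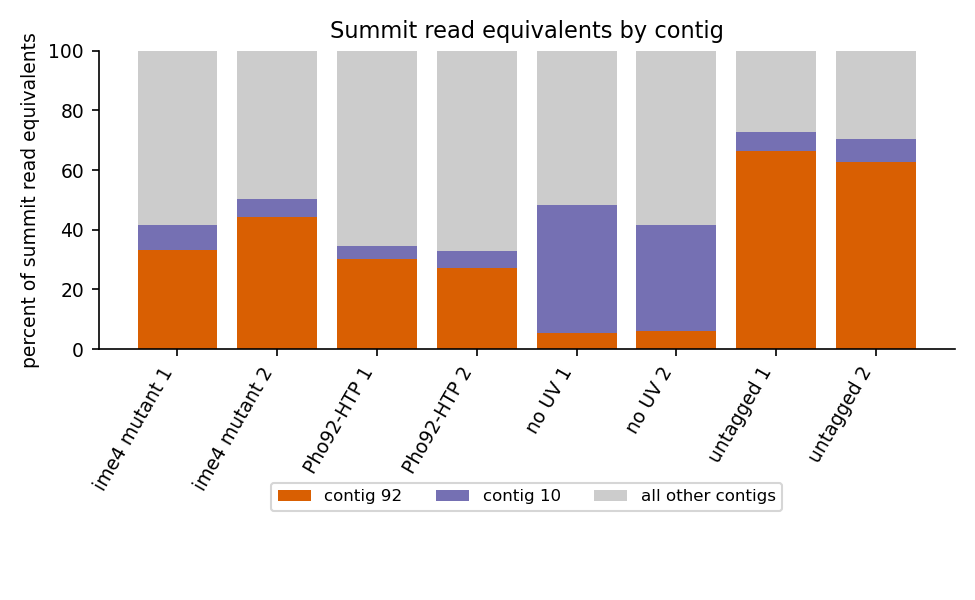
Percent of summit read equivalents on contigs NCSL01000092.1 (contig 92), NCSL01000010.1 (contig 10) and all others in each of the 8 libraries, stacked to 100%. Contig 92 takes 33.2% and 44.3% in the ime4 mutant and 66.4% and 62.7% in untagged cells, and contig 10 takes 43.0% and 35.5% without UV.

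Background was concentrated in 3 places on that contig. At 4472 to 4504 the scores were 132168 and 251550 in the ime4 mutant and 4409 and 1183 in untagged cells (log2 difference 6.32, SE 1.31, adjusted p = 0.00577, limma), an 8.50-fold higher summit and the smallest fold among the 199 tested regions listed in every library. At 4527 to 4555 they were 34631 and 122953 in the ime4 mutant against 606 and 186 in untagged cells (log2 difference 7.60, SE 1.32), and at 3410 to 3440 they were 25135 and 39604 against 365 and 115 (7.26, SE 1.17). These 3 regions together made up 6.58% and 9.84% of summit read equivalents in the ime4 mutant, against 40.2% and 39.3% in untagged cells. All 3 calls were lost with either ime4 mutant library left out, at differences of 6.78 and 5.86, 8.52 and 6.69, and 7.59 and 6.94, and that at 4472 to 4504 also with a replicate block (adjusted p = 0.0509, limma, against 8.66e-05 to 0.96 over all fits with a positive difference).

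The next regions of that contig by untagged score were weaker there. At 1808 to 1840 the scores were 9464 and 17832 in the ime4 mutant and 85.8 and 3.86 in untagged cells, where the replicates differed widely, and the summit was 19.8-fold higher in the ime4 mutant. At 1589 to 1625 it was 25.9-fold higher and at 2688 to 2737 33.0-fold higher. The calls at 1808 and at 1589 were lost with either ime4 mutant library left out, at differences of 9.94 and 9.02 and of 9.94 and 9.60. Fitting all 8 libraries together lost the one at 1808 too (adjusted p = 0.135, limma, 0.00378 in the 4-library fit). By library total all 3 were uncalled, at 0.48, 0.77 and 1.08.

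At some sites that were strong in the ime4 mutant, untagged cells gave a few reads only. Among tested regions listed in every library, the 8 largest log2 differences ran from 17.86 to 20.82, all on the minus strand and none on NCSL01000092.1. NCSL01000012.1 at 108874 to 108924 had summits of 2019 and 2689 read equivalents in the ime4 mutant against 1.00 and 3.33 in untagged cells (log2 score difference 20.82, SE 1.32, adjusted p = 0.000138, limma). NCSL01000003.1 at 353118 to 353173 had 1059 and 1444 against 1.00 and 1.00 (19.50, SE 0.97). NCSL01000008.1 at 1259 to 1291 was the strongest of the 8, with scores of 25425 and 9036 in the ime4 mutant and 0.0467 and 0.0466 in untagged cells. Its summits were 25381 and 19839 read equivalents in the ime4 mutant. In untagged cells they were 42.6 and 52.3, which is more than a few reads. The Pho92-HTP libraries scored 9934 and 18841 at that site, and the no-UV libraries listed none.

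In 24 tested regions neither untagged library had a peak, so no fold is given. Their median summits were 296 and 351 read equivalents in the ime4 mutant. All 24 were called higher, but both untagged values equal the pseudocount there, so their agreement is not measured spread. The highest 4 lay on NCSL01000092.1, at 1455 to 1472 (scores of 1909 and 4303 in the ime4 mutant), 4786 to 4818 (1628 and 2443), 3934 to 3961 (541 and 858) and 4136 to 4162 (99.6 and 255). All 4 had an untagged peak within 38 nt, so a missing peak there did not mean a missing signal. NCSL01000034.1 at 95589 to 95618 on the minus strand scored 26.1 and 23.4 in the ime4 mutant, with an untagged peak 19 nt away.

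In 14 of the 24 the nearest untagged peak on the strand was more than 50 nt away, and in 5 of them more than 1000 nt. These 5 were chosen after their values were seen. The strongest, NCSL01000061.1 at 37396 to 37451, lay on the minus strand and scored 4.31 and 4.96 in the ime4 mutant, with summits of 440 and 480 read equivalents, and 3.05 and 9.21 in Pho92-HTP. NCSL01000055.1 at 38796 to 38827 on the minus strand scored 4.08 and 3.23, and NCSL01000005.1 at 335263 to 335297 (plus strand) 3.31 and 1.31. The remaining pair, NCSL01000050.1 at 65496 to 65528 and NCSL01000035.1 at 35570 to 35599, both on the minus strand, had 1.94 and 1.64 and 2.25 and 1.13.

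A single tested region was lower in the ime4 mutant. The ime4 mutant lists held no peak on NCSL01000092.1 at 2756 to 2784, where untagged cells scored 3.00 and 0.988 (log2 difference -16.19, SE 0.61, adjusted p = 2.06e-05, limma). Both ime4 mutant values equal the pseudocount there, so the difference depends on it and their agreement is not measured spread. The ime4 mutant libraries held scores of 5697 and 8182 within 50 nt of it, and with regions within 50 nt merged the joined region was higher in the ime4 mutant, by 9.72. The uncalled region, at 4744 to 4775 on the same contig, had no peak in ime4 mutant replicate 1 and scored 1499 in replicate 2, against 2.01 and 1.84 in untagged cells (log2 difference -3.37, SE 8.52). Without ime4 mutant replicate 1 its difference was 9.61, and without replicate 2 it was -16.36, so 1 library decides its sign.

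Scaling to the spike-in compares amounts, whereas scaling to the libraries' own content compares profiles. Scaling by library total lowered every difference by 9.0 on the log2 scale, and a trimmed mean over the 448 regions listed in every library lowered it by 10.61. By library total 229 of 292 regions were then relatively higher in the ime4 mutant (78.4%) and 5 lower (1.71%), and by trimmed mean 178 were higher (61%) and 6 lower (2.05%) (limma). All 6 lay on NCSL01000092.1. They included the 3 regions with the highest background, at -4.29 (4472 to 4504), -3.01 (4527 to 4555) and -3.35 (3410 to 3440), the region at 2756 to 2784, and weaker ones at 4955 to 4996 and 5207 to 5265. Since the filter was passed mostly through the ime4 mutant alone, the counts of higher regions under these scalings also follow the choice of regions. NCSL01000010.1 at 76774 to 76805 was not called by trimmed mean, at 0.50.

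**Figure D4:**
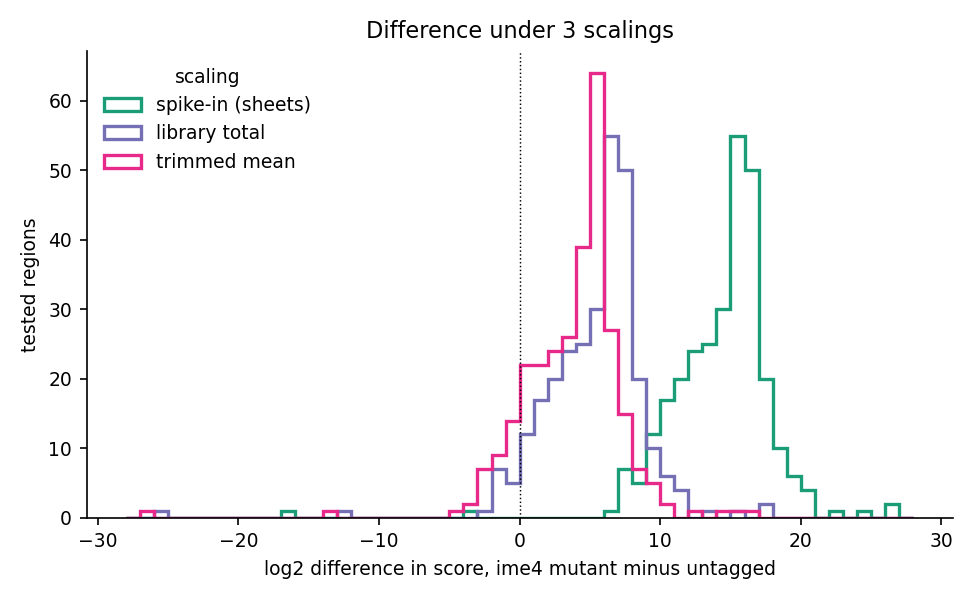
Histogram of the log2 score difference, ime4 mutant minus untagged, over the 292 tested regions under 3 scalings (y, number of regions in bins of 1). The medians are 15.10 with the spike-in factors of the sheets, 6.10 by library total and 4.49 by trimmed mean, and the dotted line marks no difference.

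Background and recovery tended to rise together across sites, most closely on contig NCSL01000092.1. Over the 267 tested regions with a peak in both groups, the Spearman correlation between the mean scores was 0.76, given as a description. It was 0.92 over 44 regions of NCSL01000092.1 and 0.64 over 223 regions elsewhere. With Pho92-HTP in cells that have IME4, the ime4 mutant values correlated at 0.88 over 288 regions, and with the no-UV libraries at 0.78 over 253. Off NCSL01000092.1, 407 regions were listed in all 4 libraries at any score. There single ime4 mutant and untagged libraries correlated at 0.48 to 0.55, and the untagged replicates with each other at 0.53. Points of each correlation share libraries and any common property of their RNA, such as abundance, and neighbours on 1 contig may share reads.

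Peak centres lay close together in both groups. In the 199 tested regions listed in every library, the peak centres differed by a median of 3 nt in each of the 4 pairings of an ime4 mutant with an untagged library, against 1 nt between the ime4 mutant replicates and 4 nt between the untagged replicates. The median peak width was 33 nt in the ime4 mutant libraries and 32 nt in the untagged ones. Regions were built by joining touching peaks, so centres within a region had to lie near each other, and their closeness carries no weight of its own. Over all 448 regions listed in every library, the medians were larger, at 7 to 8 nt between the groups. They were 2 nt between the ime4 mutant replicates and 9 nt between the untagged replicates.

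The libraries not used to build the regions show what else these sites have in common. Both ime4 mutant libraries exceeded 0.9 in 290 regions, of which 238 did so in both Pho92-HTP libraries and 10 in neither. Without UV, 41 of the 290 were above 0.9 in both libraries and 234 in neither. For 183 of the 290 the threshold was passed in both Pho92-HTP libraries and in neither no-UV library. Off contig NCSL01000092.1, the median score of the 243 regions was 9.99 and 7.12 in the ime4 mutant, 8.19 and 13.4 in Pho92-HTP, 0.00139 and 0.00135 without UV, and 0.00101 and 0.000279 in untagged cells. All 243 were above 0.9 in both ime4 mutant libraries, so these medians do not compare recovery with and without IME4 at large. Over all peaks, 1061 and 1101 were above 0.9 in Pho92-HTP, against 336 and 333 in the ime4 mutant.

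**Figure D5:**
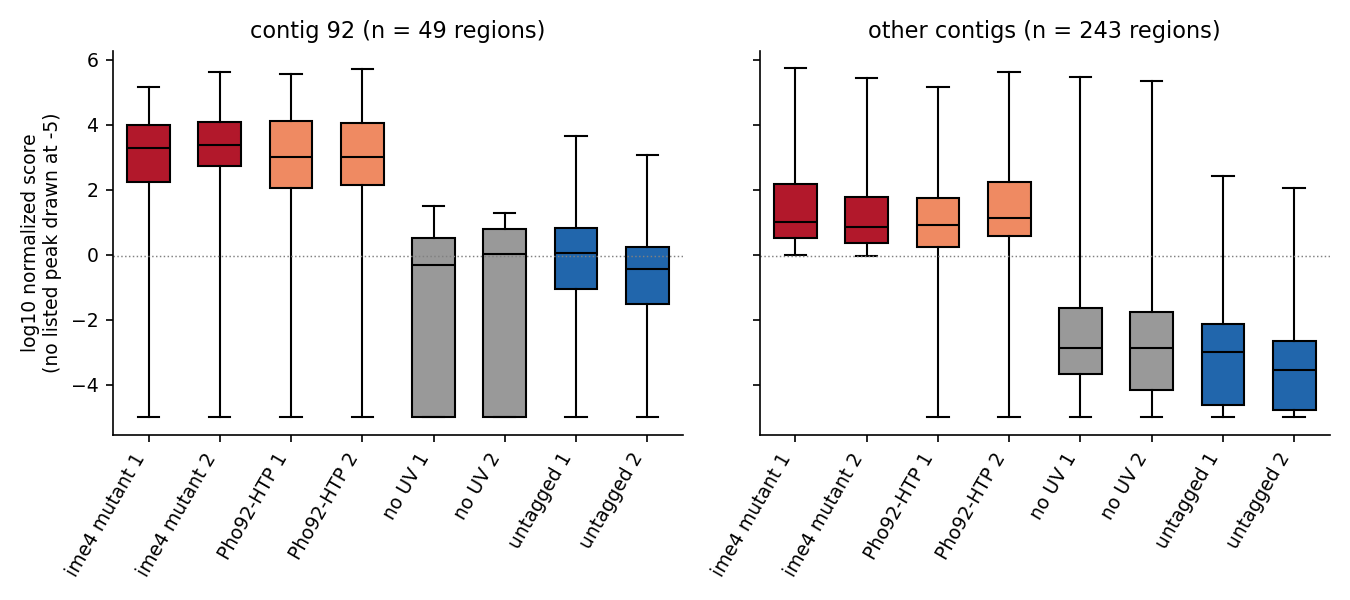
Log10 normalized score of the tested regions in each of the 8 libraries, for contig NCSL01000092.1 (contig 92, 49 regions) and all other contigs (243 regions). Boxes span the quartiles with the median, whiskers the full range, regions without a listed peak (or under 1e-05) are drawn at -5, and the dotted line marks 0.9. Off contig 92 the ime4 mutant medians, 9.99 and 7.12, stand beside 8.19 and 13.4 in Pho92-HTP, 0.00139 and 0.00135 without UV, and 0.00101 and 0.000279 in untagged cells. The 243 regions were all above 0.9 in both ime4 mutant libraries, so the medians do not compare recovery with and without IME4 at large.

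The 41 regions that were also above 0.9 in both no-UV libraries were recovered with the tag from cells that had not been irradiated. NCSL01000001.1 at 445225 to 445256 (plus strand) scored 38582 and 18548 in the ime4 mutant, 5669 and 17651 without UV, and 3.43 and 0.655 in untagged cells. NCSL01000009.1 at 88258 to 88289 on the minus strand scored 9346 and 4878 in the ime4 mutant, 4558 and 4975 without UV, and 1.73 and 0.496 in untagged cells. These regions were chosen after their values were seen. At both of these sites the libraries with the tag, irradiated or not, lay above both untagged libraries. Of the 41, 24 lay off NCSL01000092.1, and in each of these both no-UV libraries were above both untagged ones. On NCSL01000092.1 several regions did not show this. At 3410 to 3440 the no-UV libraries scored 1.91 and 4.76, against 365 and 115 in untagged cells. At 4527 to 4555 they scored 1.48 and 5.88 against 606 and 186, and at 1589 to 1625 23.0 and 19.3 against 36.7 and 4.27.

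Of the 10 regions above 0.9 in both ime4 mutant libraries and in neither Pho92-HTP library, 9 lay off contig NCSL01000092.1. NCSL01000052.1 at 41437 to 41475 on the minus strand scored 17.0 and 4.17 in the ime4 mutant, had no listed peak in Pho92-HTP, and scored 0.00213 and 7.27e-05 in untagged cells. Within 50 nt of it, though, the Pho92-HTP libraries held peaks of 12.2 and 4.46, and such neighbours above 0.9 in both Pho92-HTP libraries stood beside 3 of the 10 regions. NCSL01000017.1 at 77656 to 77689 on the minus strand scored 7.69 and 4.54 in the ime4 mutant and 0.262 and 0.646 in Pho92-HTP, with no untagged peak and nothing higher in Pho92-HTP within 50 nt. NCSL01000058.1 at 595 to 625 (plus strand) scored 5.73 and 4.67 in the ime4 mutant, with 0.279 and no peak in Pho92-HTP and 0.000203 in 1 untagged library. The 3 are shown because they are the strongest of the 9 in the ime4 mutant, and they were picked after their values were seen.

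Many of the strong sites came in sets with matching values on different contigs. Off NCSL01000092.1, 118 regions had a mean ime4 mutant score above 9 and a peak in both Pho92-HTP libraries. Of these, 53 matched at least 1 other within 1.25-fold in all 4 of the ime4 mutant and Pho92-HTP libraries, and linked matches formed 19 sets of up to 10 regions. The rule was written after the values were seen. In the set made of NCSL01000005.1 at 195069, NCSL01000029.1 at 132362, NCSL01000031.1 at 84017 and NCSL01000052.1 at 60291 (all minus strand), scores were 564, 626, 608 and 658 in ime4 mutant replicate 1 and 333, 337, 334 and 329 in replicate 2. Untagged replicate 1 gave 0.0501, 0.0579, 0.0616 and 0.0870 for them and replicate 2 gave 0.0249, 0.0105, 0.0187 and 0.0152, and the no-UV libraries, which were not used for matching, gave 379 to 395 and 412 to 432.

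Of the matching pairs, 12 were above 0.9 in both no-UV libraries, and all 12 also matched within 1.25-fold there. Among all 276 pairs at that level, which include these 12, it was 18. Pairs from 1 set share regions, so the 12 are not independent of each other. Of the 8 regions with the largest differences above, those on NCSL01000008.1 at 341067, NCSL01000039.1 at 94589 and NCSL01000002.1 at 302283 form a set, though below 0.9 in both no-UV libraries. Their scores were 166, 161 and 161 in ime4 mutant replicate 1 and 197, 196 and 201 in replicate 2, against 0.000231, 2.49e-05 and 0.000223 in untagged replicate 1 and 1.70e-05, 0.000812 and 0.00134 in replicate 2. The untagged values thus did not match within the set. Also among the 8, NCSL01000002.1 at 220206 and NCSL01000054.1 at 18419 each belong to a separate set of 2 regions. Whether the members of a set are copies of 1 sequence that share reads was not tested. Counting each set once leaves 84 groups in place of 118 regions, and regions are therefore not independent of each other.

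Replicates of the ime4 mutant agreed closely next to these differences. Over the 290 regions above 0.9 in both, the score differed between them by a median of 1.6-fold and at most 7.09-fold. Replicate 1 was the higher in 180 of 243 regions off contig NCSL01000092.1 and in 12 of 47 on it, so the contig varied against the rest between replicates. The untagged replicates were less alike in order, with a Spearman correlation of 0.86 over the 201 tested regions with a peak in both. For the ime4 mutant it was 0.96 over 290. Untagged replicate 1 was higher in 152 of the 201, and the median log2 difference, replicate 1 minus replicate 2, was 1.71. By the same measure the ime4 mutant replicates gave 0.34 over the 290 regions. These medians are offsets that depend on each library's factor, not measures of spread. For untagged cells, the sheets and the deposited normalization values rank the factors of the 2 replicates in opposite order.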

How the data were processed

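Deposited were a list of peaks for each library and a table of normalization values. Per the labels reads had 75 nt, and per the submitters' processing notes cutadapt and Bowtie2 2.4.1 were among the tools, with ASM294v2 as fission yeast build. The sources used here do not give the peak caller, the SK1 assembly or whether positions count from 0 or 1, so positions stand as listed. Per the file headers a peak has an h2w score and a normalized score, which is the score times 1 factor per library. That factor is a ratio of spike-in scores, with Pho92-HTP replicate 1 on top, in the deposited table, which also holds peak counts per library. Its factors for WT (0.428 and 0.746) and no UV (1.13 and 0.771) stand the other way round in the deposited sheets, whose untagged lists were scaled by 1.13 and 0.771; the sheets' factors were used, and the ime4 mutant factors were 1.73 and 1.01.

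The reading of the score as squared height over width, with reads smoothed by a Gaussian of SD 15 nt, was worked out from the values: of peaks 32 nt wide, 69.7% to 91.5% in the 4 libraries came within 0.01 of a whole read number. Regions above 0.9 in at least 2 of 4 libraries were fitted with a mean-variance trend by limma 3.58.1 under R 4.3.3 on log2(normalized score + pseudocount), where the pseudocount is percentile 5 of the 4 lists' normalized scores, with Benjamini-Hochberg adjustment. Fold changes are on that scale and, where no peak is listed, depend on the pseudocount. The procedure was tested on simulated data. Peaks of other libraries were given to the region they overlapped most. Python 3.11.15, pandas 2.3.3, numpy 2.4.6 and matplotlib 3.10.9 did the rest.

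The comparison, regions and naming rule were chosen with earlier results of these data known. Named were the 8 largest differences called higher with a peak in all 4 libraries, the 5 strongest without an untagged peak, the 8 highest means in each group, all called lower and the 5 lowest differences; others are said to be chosen later.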

Additional observations from a re-analysis of the deposited data

How the results depend on the processing

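Over 16 other settings, 381 of 425 values of the 27 named regions kept their direction and side of the threshold. Raw scores, the table's factors, the highest peak score, the fit on all 8 libraries and the replicate block left 290, 290, 290, 281 and 289 regions called higher and 1 lower. The labels do not say whether same-numbered libraries were handled together. Deviations of same-numbered libraries correlated at 0.06 over the tested regions, which cannot settle this because regions are not independent. Trimmed-mean scaling gave 178 higher and 6 lower (median log2 difference 4.49), library-total scaling 229 and 5 (6.10), and no filter 11290 and 4 (2.63). With a peak required in all 4 libraries 0 were lower (10.39), as with regions within 50 nt merged, and, chosen after seeing the data, with contig NCSL01000092.1 left out (243 of 243 higher). A pseudocount 10 times larger gave a median of 13.28. With 1 library left out, 242 to 290 regions were higher and 1 to 2 lower, at medians of 13.79 to 15.63.

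The ratio of peaks above 0.9 was 1.33 by library total and 22.6 for scores above 9, and 10.1 to 16.7 with 1 library left out. The share of untagged peaks overlapped by an ime4 mutant peak was 62.6% at an overlap of 50% of the shorter peak, 92.5% for untagged peaks above 0.9, 11.4% for ime4 mutant peaks above 0.9, and 62.8% to 79.5% with 1 library left out.

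On NCSL01000092.1 the regions at 4472 to 4504, 4527 to 4555 and 3410 to 3440 turned to -2.68, -1.40 and -1.74 by library total and to -4.29, -3.01 and -3.35 by trimmed mean, by which those at 1808 to 1840, 1589 to 1625 and 2688 to 2737 gave -1.13, -0.84 and -0.53, uncalled. With regions within 50 nt merged, those at 2756 to 2784 and 4744 to 4775 gave 9.72 and 9.98, and that at 4744 to 4775 gave 9.61 without ime4 mutant replicate 1 and -16.36 without replicate 2. The causes were not tested, beyond the shift that a scaling applies to all regions. Without a filter 12 named regions lost their call at the same difference. Low values limit the untagged group: many of its peaks are 1 read high, and 24 tested regions have none. Whether sequencing depth accounts for this was not tested.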
